A study of Bos taurus with 16 samples.

Results

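GAPDH and ACTB are commonly chosen as internal references when the expression of other genes is measured, and how steady their transcripts were across LPS stimulus and cattle breed was examined in monocyte-derived macrophages (MDMs). They were taken by Ensembl identifier, ENSBTAG00000014731 for GAPDH and ENSBTAG00000026199 for ACTB, which are 2 of the 27607 genes listed in each count file. The count files carry identifiers only, and the reference table used here matched 0 of the 27607, so both symbols are those supplied with the identifiers and were not checked against these data.

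GAPDH encodes glyceraldehyde-3-phosphate dehydrogenase, an enzyme of glycolysis, the pathway that breaks down glucose and on which macrophages lean more heavily once bacterial products activate them. ACTB encodes beta-actin, the main building block of the filaments that give these cells their shape, carry them over surfaces and close around engulfed particles. A reference gene is meant to hold the same level in every sample compared, because a relative measurement divides each target by it, and any change of the reference is then read with opposite sign in the target. The study included GAPDH among its candidate references for RT-qPCR and worked with RPLP0 and a ubiquitin gene, neither of which could be looked up here without symbols. By the geNorm procedure, where a low value marks a steady gene, these had the lowest values. GAPDH came next, with a value close to that of RPLP0.

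MDMs were grown for 11 days from the blood of healthy young animals of up to a year of age, 4 Holstein (labelled taurine) and 4 Gir (labelled indicine), in medium with fetal bovine serum, and the cells of each animal were then left in medium alone or treated with 100 ng/ml Escherichia coli LPS, the endotoxin of gram-negative bacteria, for 48 hours. This gave 16 poly-A RNA libraries, 1 per animal and stimulus, in 4 groups of 4. The cells were adherent mononuclear cells from a density gradient, whose CD14 and CD11b the study followed by flow cytometry, and transcripts of macrophage or other cell markers could not be examined here without gene symbols. Each library held 7362247 to 10296054 gene counts, and 0 of 120 pairs of libraries were identical. On the first principal component of all genes tested, unstimulated MDMs of Holstein animal 3 had a score of 31.5. They lay apart from the other 3 unstimulated Holstein libraries (-83.0 to -67.5). Unstimulated Gir MDMs had -47.3 in animal 2, -18.9 in animal 7, 53.9 in animal 6 and 62.9 in animal 5. The last 2 lay near the LPS treated Gir libraries (54.6 to 71.5), while LPS treated Holstein libraries had -43.0 to 1.1.

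Both genes were among the most counted of every library. GAPDH received between 31612 and 51400 counts, which was 0.389% to 0.600% of the counts on genes, and it ranked between 7 and 18 by count. ACTB received between 31069 and 70894 counts, 0.382% to 0.883% of the counts on genes, and ranked between 5 and 19. At these depths counting error was at most 0.562% of a GAPDH count and 0.567% of an ACTB count, which covers neither duplicate reads nor library preparation nor culture. Counts are not divided by transcript length, so the level of one gene was not compared with that of the other. Only uniquely mapped reads had been counted, and reads matching a processed pseudogene or another actin gene equally well would have been left out of these counts.

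Levels are given as CPM, a scale on which the highest GAPDH share of 0.600% is 5999, after TMM scaling, which sets the size of each library from the bulk of its genes. In unstimulated Gir MDMs, GAPDH stood at 4657 in animal 2, 6045 in animal 5, 5031 in animal 6 and 4801 in animal 7, and after LPS at 4456, 4487, 6868 and 4899 in the same order. The level after LPS was thus lower in animals 2 and 5, higher in animal 6 and nearly the same in animal 7. In unstimulated Holstein MDMs it stood at 4384 in animal 1, 4807 in animal 20, 3706 in animal 3 and 4425 in animal 50, and after LPS at 4174, 5683, 4852 and 5443. It was higher after LPS in 3 of the 4 Holstein animals and lower in animal 1. The group means were 5178 ± 1145 in LPS treated Gir, 5133 ± 627 in unstimulated Gir, 5038 ± 674 in Holstein treated with LPS and 4331 ± 458 in Holstein left unstimulated (SD, n = 4 each), and the ranges of neighbouring groups in this order overlapped.

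ACTB kept more to a single direction. In unstimulated Gir MDMs it stood at 4925, 8922, 6156 and 6205 TMM-scaled CPM in animals 2, 5, 6 and 7, and after LPS at 7188, 8472, 8104 and 7462. In unstimulated Holstein MDMs it stood at 4395, 5409, 3642 and 5965 in animals 1, 20, 3 and 50, and after LPS at 4660, 6725, 4977 and 7168. On this scale the level was higher after LPS in 7 of the 8 animals, with Gir animal 5, which started highest, as the exception. With library totals in place of TMM it was also lower in Holstein animal 1. The group means were 7807 ± 587 in LPS treated Gir, 6552 ± 1687 in unstimulated Gir, 5882 ± 1248 in Holstein treated with LPS and 4853 ± 1036 in Holstein left unstimulated (SD, n = 4 each). Neighbouring groups in this order overlapped, while all 4 LPS treated Gir libraries lay above all 4 LPS treated Holstein libraries. Whether a difference came from more transcript per cell or from another mix of cells cannot be told apart in bulk libraries.

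**Figure D1:**
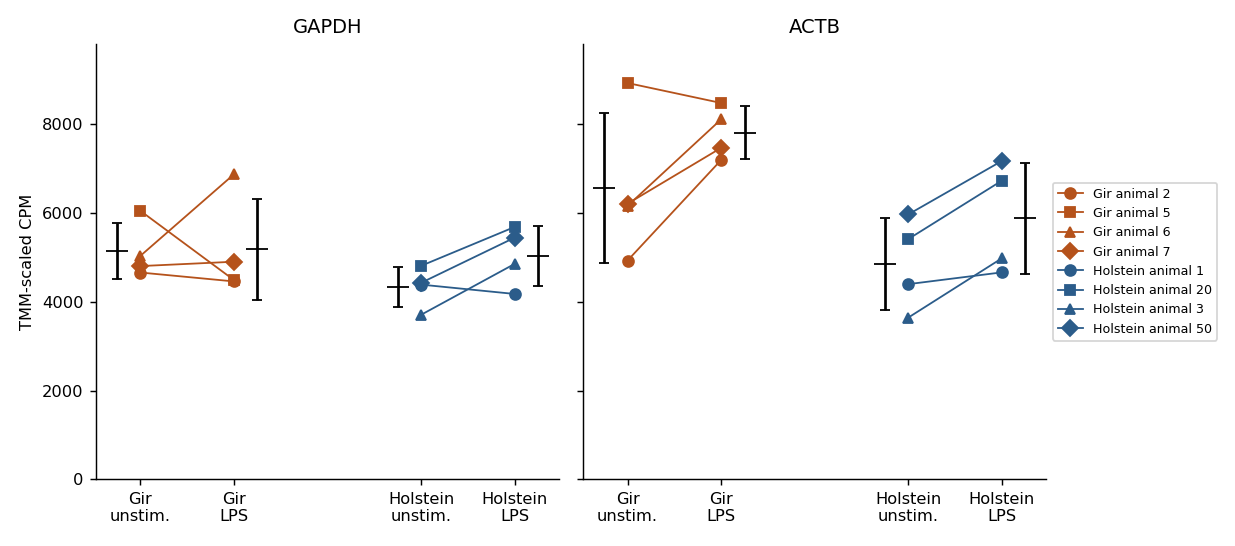
TMM-scaled CPM of GAPDH (left) and ACTB (right) in each library, with lines joining the unstimulated and LPS treated MDMs of an animal and black bars for the mean ± SD of each group of 4. ACTB lines run upward in 7 of 8 animals, whereas GAPDH lines run both ways, and the unstimulated library of Holstein animal 3 is the lowest of the 16 for both genes.

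Neither gene was a differentially expressed gene (DEG) of LPS stimulus. DEGs were called by edgeR's quasi-likelihood test at an adjusted p (Benjamini-Hochberg over all genes tested) under 0.05 with a log2 fold change of 1 or more in either direction, a limit under which a gene that changes by less than 2-fold cannot be called at all. Over both breeds, with the breed as a term, 212 of 12968 genes (1.63%) were DEGs, and 350 (2.7%) passed the adjusted p alone. GAPDH had a log2 fold change of 0.12 (SE 0.13, adjusted p = 0.698), with a 95% interval from -0.15 to 0.38. ACTB had a log2 fold change of 0.27 (SE 0.15, adjusted p = 0.380), with an interval from -0.056 to 0.59. The absolute log2 fold change was larger than that of GAPDH for 66.6% of genes tested and larger than that of ACTB for 38.6%. Leaving out each animal in turn gave 0.081 (without Holstein animal 3) to 0.20 (without Gir animal 5) for GAPDH and 0.24 (without Gir animal 2) to 0.33 (without Gir animal 5) for ACTB, which had 0.25 without Holstein animal 3.

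By their labels the unstimulated and LPS treated cells came from the same animals. The deviations of an animal's libraries from their group means correlated by 0.645 to 0.822 in Holstein but only by 0.054 to 0.303 in Gir. With the animal as a block 708 genes (5.46%) were DEGs over both breeds and 1969 (15.2%) passed the adjusted p alone. ACTB then had a log2 fold change of 0.28 (SE 0.093, unadjusted p = 0.0122, adjusted p = 0.0671 by edgeR's test), with an interval from 1.05-fold to 1.40-fold. Its adjusted p by the same test lay between 0.0475, without Gir animal 5, and 0.147, without Gir animal 7. GAPDH with the block had a log2 fold change of 0.11 (SE 0.11, adjusted p = 0.559), with an interval from 0.907-fold to 1.28-fold. Taken as single values per animal, the mean change of ACTB was 0.28 ± 0.20 on the log2 scale (SD, n = 8), with an exact two-sided sign-flip permutation p of 0.0156 and an adjusted p of 0.171 over the 12 exact tests of this report. That of GAPDH was 0.11 ± 0.29 (SD, n = 8), higher in 5 of 8 animals (exact sign-flip permutation p = 0.359, adjusted p = 0.446).

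The sign of the GAPDH change depended on how libraries were scaled. The TMM factor was lower in the LPS treated than in the unstimulated library of every animal, by 0.078 to 0.25 on the log2 scale, so scaling by library totals alone moved the median log2 fold change of all genes by -0.15 over both breeds. With library totals GAPDH had a log2 fold change of -0.044 and ACTB of 0.11. Relative to the median gene the values barely differed between these scalings, at 0.15 with TMM and 0.15 with totals for GAPDH, and at 0.30 and 0.30 for ACTB. Scaled by totals, the mean change of ACTB per animal was 0.13 on the log2 scale (exact sign-flip permutation p = 0.117, n = 8). ACTB was then lower after LPS in Gir animal 5 (-0.19) and Holstein animal 1 (-0.023), and its change in Holstein animal 50 was 0.012. GAPDH was then lower after LPS in Gir animals 2, 5 and 7 and in Holstein animal 1.

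Within the breeds, 0 of 11913 genes tested in Gir and 0 of 12400 in Holstein were DEGs of LPS by edgeR's quasi-likelihood test without the block (0% in both, with 1388 and 840 genes at an unadjusted p under 0.05, and 352 and 162 DEGs by DESeq2). With the animal as a block 23 genes (0.193%) were DEGs in Gir and 474 (3.82%) in Holstein, where 920 (7.42%) passed the adjusted p alone, and neither gene was among them. In Gir, GAPDH had a log2 fold change of 0.0087 (SE 0.18, edgeR's adjusted p = 0.985), and without animal 6 it was -0.17. ACTB in Gir had 0.25 (SE 0.19, adjusted p = 0.620), and 0.39 without animal 5. In Holstein, GAPDH had 0.26 (SE 0.21, adjusted p = 0.909) and ACTB 0.32 (SE 0.26, adjusted p = 0.905). The intervals in Holstein reached 1.67-fold for GAPDH and 1.88-fold for ACTB. With the animal as a block they reached 1.56-fold and 1.63-fold, with adjusted p-values of 0.369 for GAPDH (SE 0.16) and 0.265 for ACTB (SE 0.16) by edgeR's test. In Gir the block gave adjusted p-values of 0.988 for GAPDH and 0.365 for ACTB.

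Whether LPS changed a gene by a different amount in Gir and Holstein was tested as an interaction. Without the animal as a block, 0 of 12968 genes (0%) were called by edgeR (250 at an unadjusted p under 0.05), and DESeq2 called 2. For GAPDH the log2 change was larger in Holstein by 0.21 (SE 0.26, adjusted p = 1.000 by edgeR), with an interval from -0.34 to 0.76, and leaving out Gir animal 5 gave 0.056 and leaving out Gir animal 6 gave 0.42. For ACTB the difference was 0.025 (SE 0.31, adjusted p = 1.000 by edgeR), with an interval from -0.65 to 0.69, and leaving out each animal in turn gave -0.12 to 0.11. With the animal as a block 0 genes (0%) were called as well, and 1075 had an unadjusted p under 0.05 by edgeR. GAPDH then had 0.22 (SE 0.22, edgeR's adjusted p = 0.768), with an interval from -0.27 to 0.71. Leaving out Gir animal 5 gave 0.077 and leaving out Gir animal 6 gave 0.41. ACTB had -0.0051 (SE 0.19, edgeR's adjusted p = 0.997), with an interval from -0.43 to 0.42.

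Neither gene was a DEG between the breeds. After LPS, 881 of 11986 genes (7.35%) were DEGs, and 1057 (8.82%) passed the adjusted p alone. ACTB had a log2 fold change, Holstein relative to Gir, of -0.39 (SE 0.21, edgeR's adjusted p = 0.336) and an interval from 0.548-fold to 1.06-fold. The lowest LPS treated Gir library stood at 7188 TMM-scaled CPM and the highest LPS treated Holstein library at 7168, so the groups were parted by a narrow gap (exact two-sided permutation p = 0.0286, the smallest that 4 against 4 allow, adjusted p = 0.171 over the 12 exact tests). With DESeq2 size factors the exact permutation p was 0.0571. Of the 12968 genes, 1038 (8%) had all LPS treated Gir above all LPS treated Holstein libraries. GAPDH differed by -0.023 (SE 0.21, edgeR's adjusted p = 0.973), with an interval from 0.709-fold to 1.37-fold, and without Gir animal 6 or Holstein animal 1 it was 0.13 or 0.055.

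In unstimulated MDMs, 40 of 12565 genes (0.318%) were DEGs between the breeds. ACTB had a log2 fold change of -0.43 (SE 0.27, edgeR's adjusted p = 0.579), and GAPDH of -0.25 (SE 0.20, adjusted p = 0.679). For both genes the libraries of the breeds overlapped. These values rested in part on Gir animal 5, the highest unstimulated library for both genes, without which ACTB had -0.26 and GAPDH -0.17. Without Holstein animal 3, the lowest library for both, they had -0.32 and -0.18.

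**Figure D2:**
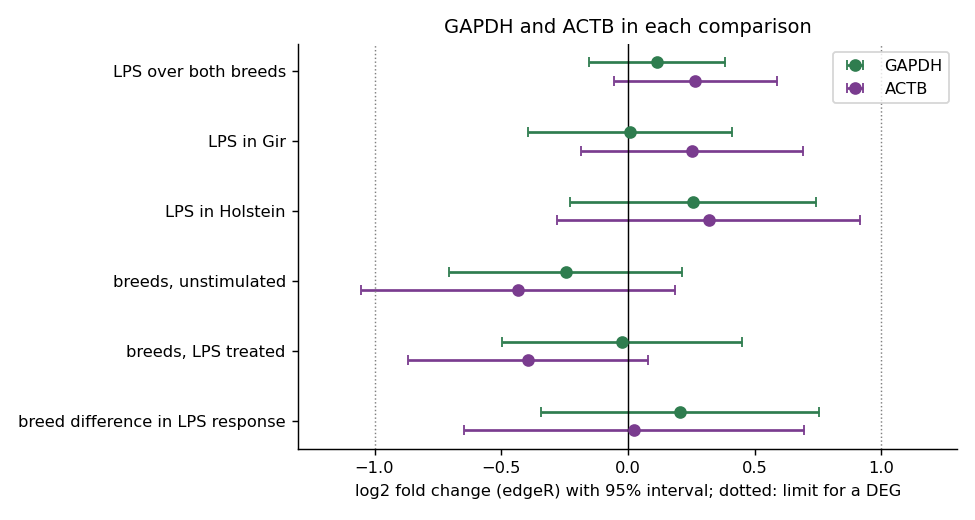
Log2 fold changes of GAPDH and ACTB with 95% intervals from edgeR's quasi-likelihood test, LPS relative to unstimulated in the upper 3 comparisons, Holstein relative to Gir in the following 2, and Holstein minus Gir in the change with LPS in the last. Every interval includes 0, and 1 of them, ACTB between unstimulated MDMs of the breeds, passes the limit of 1 in absolute value that a DEG had to reach.

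The ratio of GAPDH to ACTB counts within a library needs no scaling and shows whether both references would give the same answer. In Gir it was 0.945, 0.678, 0.817 and 0.774 in unstimulated MDMs of animals 2, 5, 6 and 7, and 0.620, 0.530, 0.847 and 0.657 after LPS. In Holstein it was 0.998, 0.889, 1.02 and 0.742 in unstimulated MDMs of animals 1, 20, 3 and 50, and 0.896, 0.845, 0.975 and 0.759 after LPS. The ratio was lower with LPS in 6 of 8 animals, most in Gir animal 2, whose LPS treated ratio was 0.656 times the unstimulated one, and slightly higher in Gir animal 6 and Holstein animal 50. The mean log2 change was -0.18 ± 0.22 (SD, n = 8; exact two-sided sign-flip permutation p = 0.0469, adjusted p = 0.188), and leaving out Gir animal 2 gave -0.11. After LPS the log2 ratio was larger in Holstein by 0.40 and the breeds overlapped only through Gir animal 6 (exact permutation p = 0.0857, adjusted p = 0.206). From its lowest to its highest library the ratio varied 1.92-fold.

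**Figure D3:**
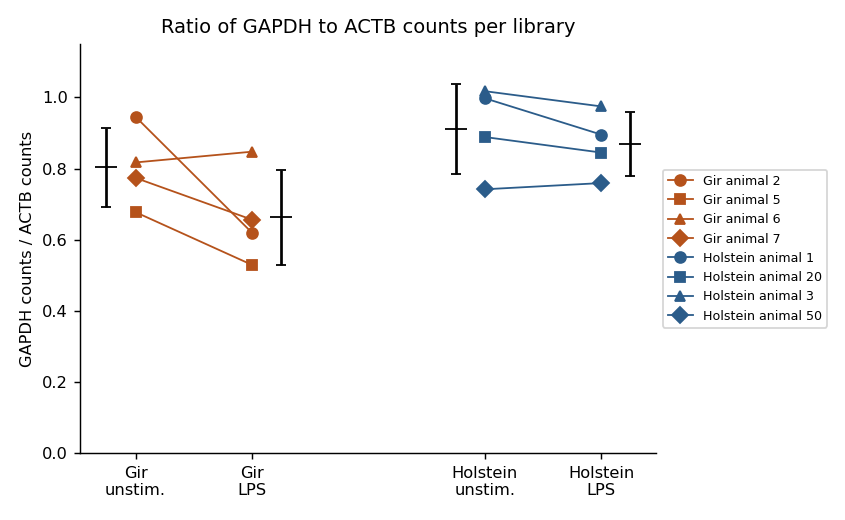
GAPDH counts divided by ACTB counts in each library, with lines joining the libraries of an animal and black bars for the mean ± SD of each group of 4. LPS treated Gir libraries span 0.530 to 0.847 and LPS treated Holstein libraries 0.759 to 0.975.

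Across the 8 animals, the changes of both genes with LPS had a Pearson's r of 0.659 (exact permutation p = 0.0758, adjusted p = 0.152) and a Spearman's rho of 0.548 (exact permutation p = 0.171, adjusted p = 0.171), 2 coefficients of 1 relation. Both changes share the scaling of the same libraries. Neither coefficient passed 0.05. Without Gir animals 5 and 6, the farthest from the median GAPDH change, r was 0.207 (exact permutation p = 0.686, n = 6), over a range of changes that leaving out the extremes had narrowed.

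As a measure of steadiness, the SD of log2 TMM-scaled CPM was taken over all 16 libraries. It was 0.22 for GAPDH, whose level varied 1.85-fold from lowest to highest library, and 0.37 for ACTB, which varied 2.45-fold. Among the 1658 genes with a mean of at least 100 CPM, 17.0% had a lower SD than GAPDH and 54.3% a lower SD than ACTB, and the median was 0.35. GAPDH varied less than most of these well expressed genes, while ACTB lay near the middle of them. The difference in spread between both genes was not tested. Within groups, which leaves out stimulus and breed, the SD was 0.21 for GAPDH and 0.29 for ACTB, against a median of 0.31. The spread of GAPDH was thus nearly as large within groups as over all libraries. With library totals in place of TMM the SD was 0.17 for GAPDH and 0.30 for ACTB, against a median of 0.35, and 7.82% and 39.9% of 1663 genes had a lower SD, so the side of the median on which ACTB lay depended on the scaling. The mean of both genes on the log2 scale, as used when a pair of references is combined, had an SD of 0.27 and changed by 0.19 on average with LPS.

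**Figure D4:**
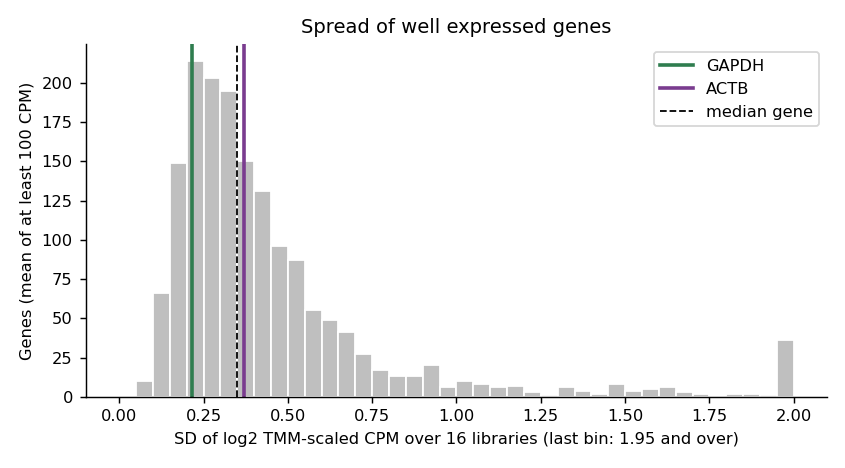
Number of genes with a mean of at least 100 CPM by their SD of log2 TMM-scaled CPM over the 16 libraries. GAPDH at 0.22 lies left of the median of 0.35, marked by the dashed line, and ACTB at 0.37 lies right of it, whereas with library totals ACTB at 0.30 would lie left.

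Many other genes varied less. The lowest SDs among the 1658 well expressed genes were those of ENSBTAG00000011396, at 0.080, whose level lay between 108 and 133 TMM-scaled CPM in the 16 libraries, and of ENSBTAG00000020093, at 0.084, between 107 and 132. They were picked as the extremes of these same libraries, which lowers their values, and no symbol is known for them here. The gene whose pattern over the 16 libraries was most like that of GAPDH was ENSBTAG00000010658 (Pearson's r of log2 values 0.925, and 0.905 for deviations from group means), with a mean of 490 CPM and an SD of 0.27. The gene most like ACTB was ENSBTAG00000008631 (r of 0.934, and 0.884 for deviations from group means). Its level was higher after LPS in 8 of 8 animals, with a mean in Gir of 350 ± 153 TMM-scaled CPM before and 565 ± 65.2 after LPS, and in Holstein of 186 ± 52.3 before and 301 ± 82.6 after (SD, n = 4 each). Among the 1658 genes, 14.2% were higher in 8 of 8 animals. Both genes were picked for their likeness over these libraries, which fixes in part how their groups are ordered. These correlations describe 16 libraries from 8 animals and share the library scaling.

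What choosing either gene as the reference would do was measured by scaling every library to its count of GAPDH, of ACTB or of the geometric mean of both, in place of TMM, and refitting all genes without the animal block. Such scaling shifts every gene by about the opposite of the reference's own log2 fold change. The moved medians thus restate in other terms the fold changes given above, which did not pass their tests. The DEGs do not follow from this shift alone, since the scatter between libraries changed too. The common coefficient of variation by edgeR was 0.390 with TMM, 0.419 with GAPDH and 0.434 with ACTB for LPS over both breeds. Between unstimulated breeds it was 0.433, 0.449 and 0.489. In LPS treated MDMs of the breeds, scaling to GAPDH gave 786 DEGs, 345 higher and 441 lower in Holstein, of which 764 were among the 881 DEGs with TMM (391 higher and 490 lower). Scaling to ACTB gave 1348, with 997 higher and 351 lower, of which 735 were among the 881, and the share of DEGs higher in Holstein went from 44.4% to 74.0%. Without scaling to either gene the balance was 767 higher and 645 lower by DESeq2, 603 higher and 552 lower without the filter on low counts, and 236 higher and 501 lower with 1 model over the 16 libraries. The median log2 fold change of all genes moved from 0.018 to 0.45 with ACTB and to 0.022 with GAPDH. For LPS over both breeds, the share of DEGs that were higher with LPS was 63.2% of 212 with TMM, 49.7% of 187 with GAPDH, 19.4% of 520 with ACTB and 32.2% of 320 with both genes. With library totals it was 32.2% of 354. Under TMM the split was 237 higher and 471 lower with the animal as a block and 141 higher and 242 lower without Holstein animal 3, and DESeq2 gave 204 higher and 487 lower. In unstimulated MDMs of the breeds GAPDH also moved the median of all genes, from 0.048 to 0.29, and ACTB to 0.47, and the number of DEGs was 40 with TMM, 30 with GAPDH and 19 with ACTB. Under TMM it was 12 (without Gir animal 7) to 49 (without Holstein animal 3) when 1 animal was left out and 150 with 1 model, and DESeq2 gave 333.

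**Figure D5:**
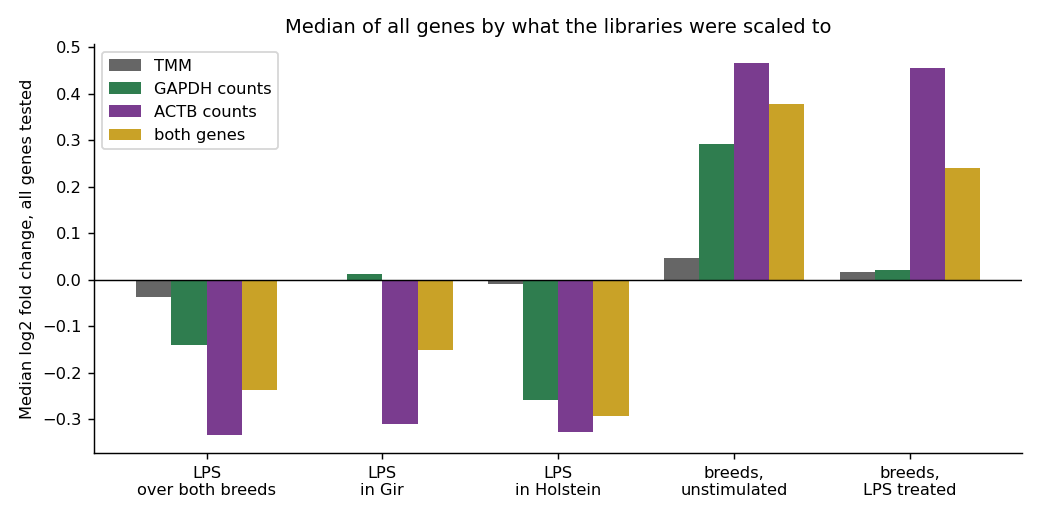
Median log2 fold change of all genes tested in each comparison when libraries were scaled by TMM, to GAPDH counts, to ACTB counts or to the geometric mean of both. Scaling to ACTB puts the median between -0.33 and -0.31 in the 3 comparisons of LPS and at 0.45 and 0.47 in the 2 of Holstein relative to Gir, and scaling to GAPDH puts it at -0.26 for LPS in Holstein and at 0.29 for unstimulated MDMs of the breeds.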

How the data were processed

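Poly-A RNA of MDMs from 8 animals was read in pairs of 100 bp. The authors aligned the reads with STAR 2.6.0c, kept uniquely mapped reads and deposited raw counts per Ensembl gene from HTSeq-count 0.10.0, without normalization or filter. The methods name the genome ARS-UCD1.2, the submitters' processing notes UMD3.1, and no coordinates are given here. Groups and animal numbers came from the labels, which give no batch, and "replicate" below is the animal.

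Tests used edgeR 4.0.16 and DESeq2 1.42.0 under R 4.3.3, and values per library Python 3.11.15. Genes reaching 1 CPM in 4 or more libraries of a fit were tested by glmQLFTest after TMM. SEs are the log2 fold change over the root of F. Log2 CPM used a prior count of 2. Both libraries of an animal carry its number, and their deviations from group means correlated by 0.054 to 0.303 in Gir and by 0.645 to 0.822 in Holstein animals. Scripts were tested on simulated data. The 2 genes, the tests and the lists were chosen with earlier results of these data known. Genes named by identifier were the most like each gene over 16 libraries and the 2 with the lowest SD among those with a mean of at least 100 CPM. Planned lists of other reference genes, glycolysis, actin filaments and cell type markers were not analysed, since the reference table (37063 genes of ARS-UCD2.0) matched 0 identifiers. Alternatives were other scalings, no filter, DESeq2, FDR alone, 1 model over 16 libraries, the animal as a block, a prior count of 0.5 and leaving out each animal with a filter of 3 libraries. Scaling to either gene, the block with FDR alone and the block without each animal were chosen after seeing the data. P-values of the exact tests, of fits with the animal as a block and of breed comparisons within 1 stimulus measure the spread between animals. Fits without the block that hold both libraries of an animal treat them as independent. Intervals were built from the SEs and a t quantile with edgeR's degrees of freedom.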

Additional observations from a re-analysis of the deposited data

How the results depend on the processing

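Neither gene was called a DEG under any alternative run, and the adjusted p of ACTB for LPS over both breeds passed 0.05, short of the fold limit, only with the animal block and without Gir animal 5 (0.0475, edgeR). Values that changed sign were at most 0.12 in size in the report, and the cause was not tested. With library totals the log2 fold change of GAPDH was -0.044 for LPS over both breeds (-0.048 as the mean per animal), -0.14 for LPS in Gir and 0.017 for Holstein against Gir after LPS (0.030 in the exact test), that of ACTB in the breed difference of the LPS response was -0.0034, and the SDs were 0.17 for GAPDH and 0.30 for ACTB. Upper quartile factors gave -0.034 for GAPDH with LPS in Gir, 0.00029 for GAPDH between LPS treated breeds in the exact test and 0.034 for the breed difference in the ACTB change, which was 0.011 with DESeq2 size factors. With the animal as a replicate block GAPDH had -0.0054 for LPS in Gir and ACTB -0.0051 in the breed difference, and the block turned no other sign of either gene.

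Leaving out each animal in turn gave, for GAPDH, -0.17 to 0.15 for LPS in Gir, -0.093 to 0.13 between LPS treated breeds and -0.090 to 0.12 in its exact test, and for ACTB -0.12 to 0.11 for the breed difference in response and -0.12 to 0.082 in its exact test. DEGs then numbered 77 (without Holstein 50) to 383 (without Holstein 3) for LPS over both breeds, 0 to 33 (without Gir 6) for LPS in Gir and 12 (without Gir 7) to 49 between unstimulated breeds.

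The number of DEGs for LPS over both breeds was 354 with library totals, 691 with DESeq2, 350 with FDR alone, 708 with the animal block, 1969 with the block and FDR alone, 520 scaled to ACTB and 320 scaled to both genes. For LPS in Gir it was 352 with DESeq2, 23 with the block, also 23 with the block and FDR alone, 2 with 1 model over 16 libraries, 23 scaled to ACTB and 1 scaled to both genes. For LPS in Holstein it was 162 with DESeq2, 474 with the block, 920 with the block and FDR alone, 36 with 1 model and 1 scaled to ACTB. Between unstimulated breeds it was 333 with DESeq2, 150 with 1 model, 19 scaled to ACTB and 21 scaled to both genes. Between LPS treated breeds it was 1412 with DESeq2 and 1348 scaled to ACTB, and DESeq2 called 2 genes for the breed difference in response.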
